A study of Mus musculus with 9 samples.

Results

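The mitosis and cytokinesis genes are a list of 43 mouse genes for the machinery that condenses, aligns and separates chromosomes and then divides the cell. They were chosen by name, with earlier results of these arrays known, and a member counted as measured where the platform annotation gave a probe set that gene symbol and no other. By that rule 39 of the 43 were measured, on 72 probe sets, out of 12393 genes on 20380 probe sets with a single symbol. Ccnb1, Fbxo5, Cdca8 and Espl1 had no such probe set, so their expression is not analysed here, and they enter only the description of start regions. The 6 subgroups used below follow the members' roles: entry kinases with their cyclins and phosphatases, checkpoint and ubiquitin ligase regulators, kinesins and spindle proteins, centromere and chromosomal passenger proteins, cohesin and condensin proteins with the enzymes of chromatid separation, and cytokinesis proteins.

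A dividing cell enters mitosis when cyclin-dependent kinase 1, bound to A- and B-type cyclins, is switched on by Cdc25 phosphatases, and the Aurora, Polo-like and NIMA-related kinases act beside it. Kinesins and spindle proteins then move the chromosomes, the spindle checkpoint holds back the anaphase-promoting complex until every kinetochore is attached, and the cleavage furrow separates the daughters. The transcripts of most of these proteins are low in G1, rise through S phase and peak in G2 and M, under regulators that include B-Myb, FoxM1 and the MuvB complex, so that a culture's mRNA for them depends on how many of its cells are in those phases.

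The study profiled 3 mouse lines on Affymetrix arrays, with 3 arrays per line and 9 in all. NIH 3T3 is an embryo fibroblast line, labelled wild type, and is the parent of the others. SV5 is a stable NIH 3T3 clone transformed by SV40 large T antigen, which inactivates retinoblastoma proteins and p53. SV5-NN4 is a stable clone with wt Nras, the normal form of the small GTPase N-ras, added to SV40 large T antigen, so that SV5 and SV5-NN4 share T antigen. All lines grew in the same medium with calf serum. The transformed lines are 1 clone each, so a clone's own features and those of the added gene cannot be told apart. The sources used here do not give the promoters that drive the added genes or the species of the added Nras. Nothing says that the replicates are separate cultures, so p-values measure only how far these arrays spread, and that spread may be technical. In bulk RNA, more cells in G2 and M and more of these mRNAs per cell cannot be told apart.

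Values are log2(intensity + 1) of the deposited intensities. The arrays' medians ran from 56.2 to 62.4 intensity units and their upper quartiles from 165.2 to 239.7. The comparisons below pair arrays with equal replicate numbers, as the rule that defines the members asks. Such arrays deviated together, least so in the pairs with NIH 3T3 replicate 1. The paired fit is limma with the replicate number as a block. A probe set was called at a Benjamini-Hochberg adjusted p under 0.05 over all 22690 probe sets. The labels do not state this pairing. Where a gene had several probe sets, the one with the highest mean (the brightest) stood for it. Nras read 7.42, 7.1 and 7.85 for NIH 3T3, 8.43, 7.76 and 8.34 for SV5, and 8.23, 8.03 and 8.45 for SV5-NN4 at its brightest probe set. The difference between SV5-NN4 and SV5 was 0.06 (95% interval -0.28 to 0.4, adjusted p = 0.96), and 0.05 and 0.27 at its other probe sets, so the arrays give no check of the SV5-NN4 label. Of 12 fibroblast markers 11 were measured, all at or above the median probe set level of 5.93, while all 6 endothelial, 6 of 7 epithelial, 5 of 6 muscle, 5 of 8 macrophage and 2 of 4 adipocyte markers lay below it.

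The members' start regions are shown first, because shared start-site elements are known for this class of genes; their part in the differences below was not tested. RefSeq promoters of the mouse build GRCm38.p6, running from 250 bases before to 50 after the annotated start, were found for 36 of the 43 listed members and gave 38 windows. The cell cycle genes homology region, or CHR, is the element bound by the MuvB complex and was searched as TTTGAA and TTCGAA on both strands. The CCAAT box, the element of the factor NF-Y, was searched as CCAAT on both strands, and these matches may overlap each other. A CHR match was found in 31 of the 38 windows, or 81.6%, against 19.2% of all 32851 windows of the same length. Within 50 bases of the start it was found in 30, or 78.9%, against 5.31% of all windows. A CCAAT match was present in 31, or 81.6%, against 37.4%, and both were present in 28, or 73.7%, against 7.52%. The shares were lower in 117 windows of other genes of mitosis, the longer list read at the end. There a CHR match was found in 41.0%, or 27.4% within 50 bases of the start, a CCAAT match in 56.4% and both in 25.6%. The members were chosen as mitotic genes, for which these elements are textbook features, and a match is a description of letters, not a bound site.

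The windows of Aurka, Cdca5 and Spag5 are printed because these were the members called between SV5-NN4 and SV5. Those of Ube2c and Plk1 were picked by name from the 10 members called between SV5-NN4 and NIH 3T3. All of the printed windows hold a CHR match, while Birc5, also called against NIH 3T3, had neither a CHR nor a CCAAT match. Capitals mark the CHR matches (TTTGAA, or TTCAAA where the match is on the other strand; none of the 5 windows holds TTCGAA) and the CCAAT matches (CCAAT, or ATTGG on the other strand), and positions count from 0 at the annotated start. Aurka lies on the minus strand at chr2:172370521-172370820, Cdca5 on the plus strand at chr19:6084847-6085146, Spag5 on the plus strand at chr11:78301341-78301640, Ube2c on the plus strand at chr2:164769679-164769978 and Plk1 on the plus strand at chr7:122159185-122159484.
Aurka: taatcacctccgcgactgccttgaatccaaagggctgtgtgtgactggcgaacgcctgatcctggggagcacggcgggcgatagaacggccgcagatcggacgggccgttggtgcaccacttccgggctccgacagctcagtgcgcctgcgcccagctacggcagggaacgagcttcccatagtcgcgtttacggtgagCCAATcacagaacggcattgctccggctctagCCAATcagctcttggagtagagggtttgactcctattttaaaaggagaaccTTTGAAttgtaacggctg
Cdca5: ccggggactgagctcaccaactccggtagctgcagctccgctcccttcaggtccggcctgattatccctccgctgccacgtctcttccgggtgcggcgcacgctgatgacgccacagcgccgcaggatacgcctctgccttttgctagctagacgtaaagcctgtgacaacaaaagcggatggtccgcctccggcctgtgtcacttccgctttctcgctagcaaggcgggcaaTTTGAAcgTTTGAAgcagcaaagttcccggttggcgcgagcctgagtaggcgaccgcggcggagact
Spag5: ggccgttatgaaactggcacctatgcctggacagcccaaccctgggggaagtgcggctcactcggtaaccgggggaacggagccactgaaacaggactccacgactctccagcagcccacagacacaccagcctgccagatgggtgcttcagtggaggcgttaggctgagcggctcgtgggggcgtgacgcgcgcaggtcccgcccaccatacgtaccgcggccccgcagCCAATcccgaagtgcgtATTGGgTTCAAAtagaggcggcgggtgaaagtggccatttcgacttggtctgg
Ube2c: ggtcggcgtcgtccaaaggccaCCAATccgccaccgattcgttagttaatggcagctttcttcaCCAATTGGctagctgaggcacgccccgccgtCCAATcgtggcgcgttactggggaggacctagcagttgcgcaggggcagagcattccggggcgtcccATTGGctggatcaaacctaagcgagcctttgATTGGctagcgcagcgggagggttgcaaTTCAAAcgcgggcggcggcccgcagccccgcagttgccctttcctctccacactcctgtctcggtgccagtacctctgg
Plk1: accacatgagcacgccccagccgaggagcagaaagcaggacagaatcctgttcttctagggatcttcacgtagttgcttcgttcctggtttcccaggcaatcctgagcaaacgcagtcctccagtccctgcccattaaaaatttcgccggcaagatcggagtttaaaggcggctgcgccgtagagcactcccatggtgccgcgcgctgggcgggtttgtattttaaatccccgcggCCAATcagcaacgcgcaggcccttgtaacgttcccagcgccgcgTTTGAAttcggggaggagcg
Cdca5 held 2 CHR matches, starting at -17 and -9, and no CCAAT match. The single CHR match started at 32 in Aurka, at 3 in Spag5, at -29 in Ube2c and at 30 in Plk1. Ube2c held 6 CCAAT matches and Plk1 held 1, at -14. Of the 36 members with a window, 7 had no CHR match: Birc5, Ccnb1, Cenpe, Mad2l1, Nek2, Nusap1 and Pttg1. Measured members with a match differed between SV5-NN4 and SV5 by a median of 1.04 on the log2 scale (n = 26, 0.45 to 1.6), and the 6 without by a median of 0.8 (0.21 to 1.07), ranges that overlap.

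All 39 measured members had a higher mean in SV5-NN4 than in SV5. The median difference was 1.02 on the log2 scale, close to a doubling, with quartiles of 0.64 and 1.15, while the median over all genes was 0.01. The smallest difference was that of the kinase Nek2, at 0.21, and the largest that of Cdca5, which encodes sororin, at 1.6. By replicate number the median member difference was 0.56, 1.21 and 1.04. In 38 of the 39 members SV5-NN4 was higher in 3 of 3 pairs, against 22.0% of all genes. The exception was Cdc25b, whose replicate 2 arrays both read 7.61. The 2 lines' arrays did not overlap in 21 members, against 4.74% of all genes higher with no overlap. At an unadjusted p under 0.05 in the paired fit 29 members were higher, against 7.32% of all genes.

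**Figure D1:**
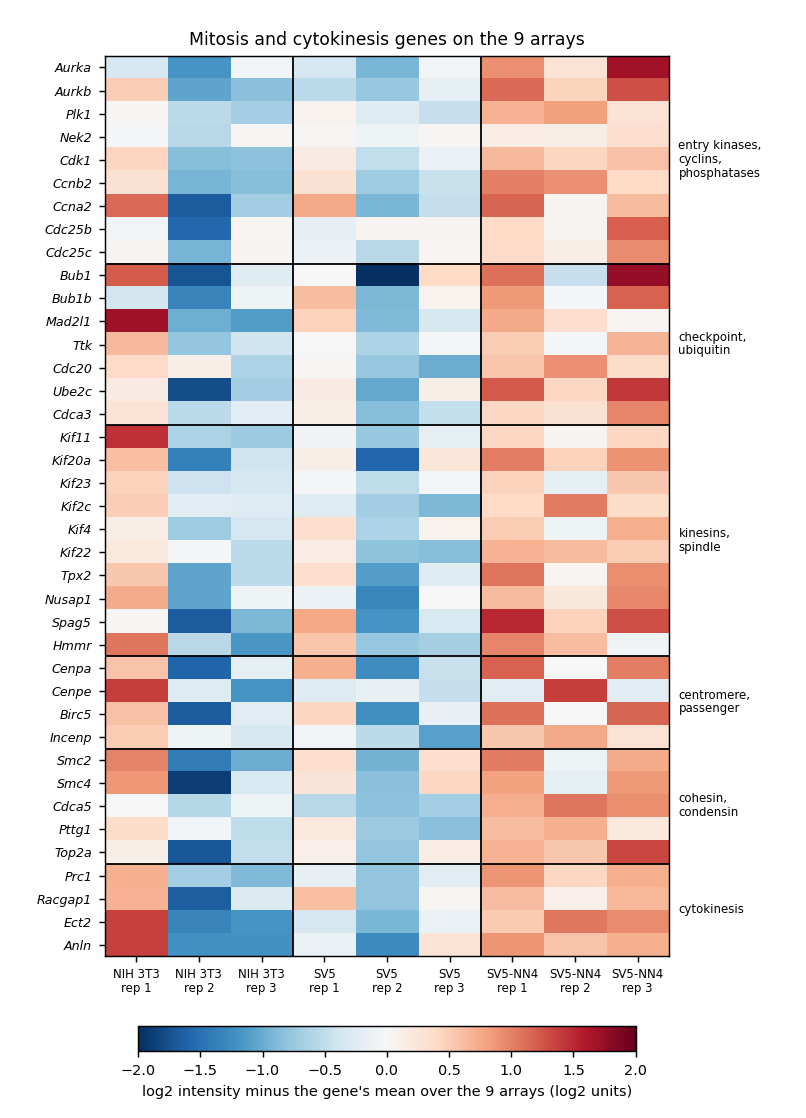
Heat map of the 39 measured members at their brightest probe sets. Rows are genes in their 6 subgroups, columns are the 9 arrays, and colour is the log2 intensity minus that gene's mean over the 9 arrays. The SV5-NN4 columns are mostly red, replicate 2 is the bluest array of NIH 3T3 and SV5, and NIH 3T3 replicate 1 is redder than the other NIH 3T3 arrays.

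After adjustment over all probe sets, 3 of the 39 were called, all higher in SV5-NN4, against 0.371% of all genes called higher: Aurka, Spag5 and Cdca5. The unpaired fit called 1, Cdca5, against 0.00807% of all genes. A paired fit of only the SV5 and SV5-NN4 arrays called 28, all higher, against 3.7% of all genes, with adjusted p from 0.0064 to 0.049. The paired fit of all lines called 25 when NIH 3T3 replicate 1 was left out, against 2.44% of all genes. It called 5 without NIH 3T3 replicate 3, 2 without NIH 3T3 replicate 2 or SV5-NN4 replicate 1, and 0 without any of SV5 replicates 1, 2 and 3 or SV5-NN4 replicates 2 and 3. The share of all genes called was not taken for these other left-out arrays. The differences themselves were above 0 in 39 of 39 members whichever array was left out. Leaving out an NIH 3T3 array cannot change these differences. The 25 calls thus came with the removal of an array that belongs to neither of the lines compared.

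**Figure D2:**
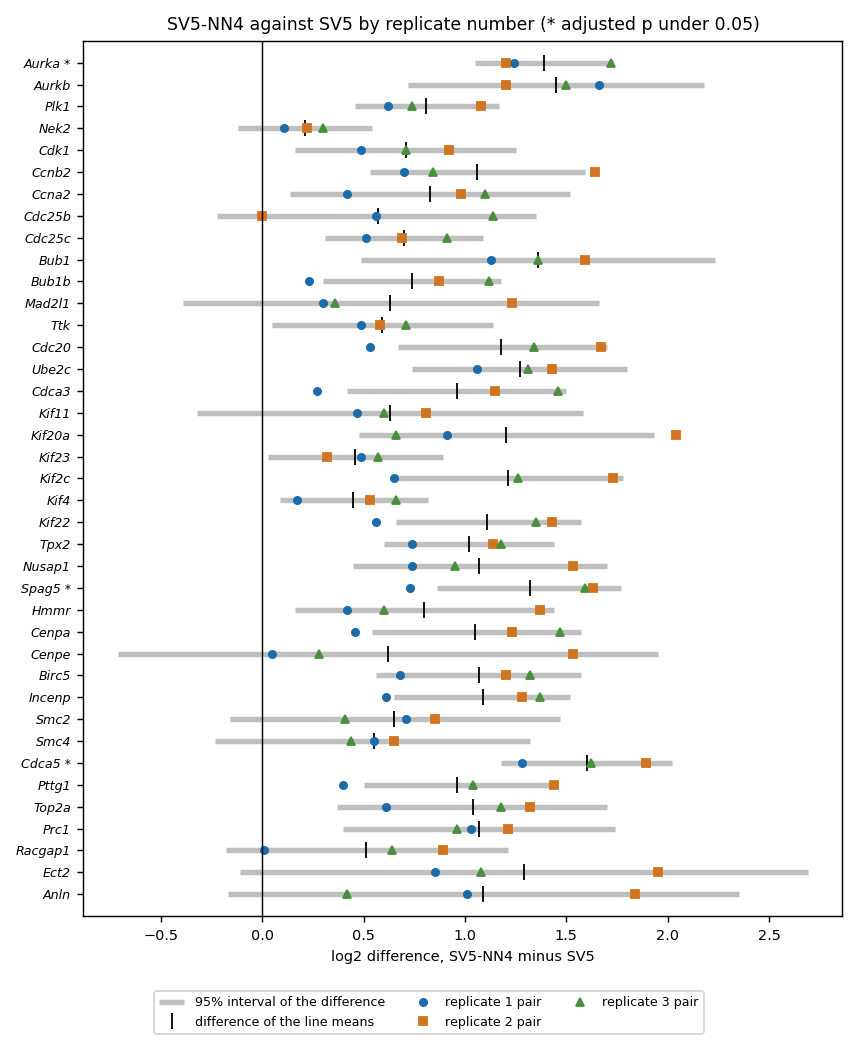
Log2 difference between SV5-NN4 and SV5 for each member (rows). Blue circles, orange squares and green triangles are the pairs with replicate numbers 1, 2 and 3, the black tick is the difference of the line means and the grey bar its 95% interval in the paired fit. All ticks lie above 0, replicate 1 pairs are often the smallest, and asterisks mark Aurka, Spag5 and Cdca5.

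RNA integrity controls moved the same way. The log2 ratio of the 3' to the 5' probe set, which grows as RNA is less complete, was higher in SV5-NN4 than in SV5 in each pair. The rise was 0.34, 0.3 and 1.24 for Actb and 0.21, 0.49 and 0.69 for Gapdh. The ratio itself was well above 0 on all 9 arrays. It ran from 2.42 to 5.06 for Actb and from 2.36 to 5.21 for Gapdh, both highest in NIH 3T3 replicate 3. The part of these ratios, and of their shift between SV5-NN4 and SV5, in the members' differences was not tested. Of the markers of other cell types, 0 of 31 measured macrophage, endothelial, epithelial, muscle and adipocyte genes were called in this comparison. Over all genes 0.371% were called higher and 0.678% lower, so 0 of 31 is near the background and does not set these markers apart. Of the fibroblast markers 3 of 11 were called lower, against that 0.678%. Of those 11 markers 10 had a difference below 0, with a median of -0.64. The summed log2 level of the fibroblast markers was 15.42 to 16.01 in SV5 and 14.81 to 15.43 in SV5-NN4; its part in the members' differences was not tested.

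Among the entry kinases, cyclins and phosphatases 9 of 10 members were measured and all 9 were higher in SV5-NN4, with a median of 0.81. Aurka encodes Aurora kinase A, which acts at centrosomes and on the spindle. Its log2 values, in the order of replicates 1 to 3, were 6.49, 5.66 and 6.78 for NIH 3T3, 6.49, 5.92 and 6.78 for SV5, and 7.74, 7.12 and 8.51 for SV5-NN4. All SV5-NN4 values lay above all others, and SV5 and NIH 3T3 overlapped. The rise over SV5 was 1.39 (2.62-fold, SE 0.15, 95% interval 1.05 to 1.73, adjusted p = 0.014), higher in 3 of 3 pairs. The unpaired fit gave an adjusted p of 0.73, and the call was lost when any one array of either line was left out, at adjusted p of up to 0.11.

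Aurkb, the Aurora kinase of the chromosomal passenger complex, had the largest difference of this subgroup, 1.45 (SE 0.31, adjusted p = 0.091), without passing the test. Its arrays read 6.06, 5.83 and 6.39 in SV5 and 7.72, 7.03 and 7.88 in SV5-NN4, with no overlap, and its other probe set differed by 1.43. Plk1, the Polo-like kinase of mitotic entry and exit, read 6.46, 6.14 and 5.93 in SV5 and 7.08, 7.21 and 6.68 in SV5-NN4, again with no overlap. Its difference was 0.81 (SE 0.15, adjusted p = 0.066). Ccnb2, a B-type cyclin, differed by 1.06 (adjusted p = 0.09) and Ccna2, cyclin A2, by 0.83 and 0.65 at its 2 probe sets. Cdk1, the kinase that these cyclins activate, differed by 0.71 (adjusted p = 0.24). The Cdc25 phosphatases, which remove the inhibitory phosphates of Cdk1, differed by 0.7 for Cdc25c and 0.57 for Cdc25b. Nek2, a kinase of centrosome separation, showed the least, with 5.53, 5.4 and 5.53 in SV5 against 5.64, 5.62 and 5.83 in SV5-NN4 (difference 0.21, 95% interval -0.12 to 0.54).

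Checkpoint and ubiquitin ligase regulators were measured for 7 of 8 members, and 7 of 7 were higher in SV5-NN4, with a median of 0.96 and 0 called. Ube2c, the ubiquitin-conjugating enzyme that starts chains for the anaphase-promoting complex, read 7.99, 6.06 and 7.13 for NIH 3T3, 7.99, 6.81 and 7.94 for SV5, and 9.06, 8.24 and 9.25 for SV5-NN4. Every SV5-NN4 array lay above every array of the other lines, and the difference from SV5 was 1.27 (SE 0.22, adjusted p = 0.058). Cdc20, the activator of that complex, differed by 1.18, 1.22 and 1.13 at 3 probe sets, with adjusted p from 0.057 to 0.17. Bub1, a kinase of the spindle checkpoint, had the largest difference here, 1.36, but also wide replicate differences: SV5 read 7.02, 4.99 and 7.44, SV5-NN4 8.14, 6.58 and 8.8, and the lines overlapped (adjusted p = 0.16). Its dimmer probe set differed by 0.21. Bub1b, the checkpoint protein BubR1, differed by 0.74 (adjusted p = 0.13), and Mad2l1, the checkpoint protein Mad2, by 0.63 with a 95% interval of -0.39 to 1.66. Ttk, the checkpoint kinase Mps1, had the smallest difference, 0.59 (adjusted p = 0.33). Cdca3, a factor in the breakdown of the Cdk1 inhibitor Wee1, differed by 0.96 at its brightest probe set and by 0.16 and -0.16 at dimmer ones. The probe set at -0.16 had a mean of 4.11, within the 3.18 to 4.25 of the bacterial Dap, Lys and Trpn control probe sets.

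All 10 kinesins and spindle proteins were measured and all 10 were higher in SV5-NN4, with a median of 1.05. Spag5, the spindle and kinetochore protein astrin, read 6.58, 4.9 and 5.66 for NIH 3T3, 7.33, 5.39 and 6.26 for SV5, and 8.07, 7.03 and 7.85 for SV5-NN4. Replicate 1 of SV5 lay above replicate 2 of SV5-NN4, so these 2 lines overlapped, while each pair pointed up. The rise was 1.32 (2.49-fold, SE 0.19, 95% interval 0.86 to 1.77, adjusted p = 0.036). The unpaired fit gave an adjusted p of 1, and the call was lost without NIH 3T3 replicate 2, any SV5 array, or SV5-NN4 replicate 2 or 3, with adjusted p up to 0.25. That probe set is an s_at one. The call was also lost when the gene's probe sets were averaged and at its brightest probe set other than s_at, where the difference was 1.05 (adjusted p = 0.28), and the dimmest differed by 0.04.

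Tpx2, which activates Aurora kinase A on the spindle, differed by 1.02 at both probe sets (adjusted p = 0.056 and 0.1), reading 8.12, 6.69 and 7.54 in SV5 and 8.86, 7.83 and 8.72 in SV5-NN4 at the brighter one. Of the motor proteins, the microtubule depolymerase Kif2c differed by 1.21, the chromosome-binding kinesin Kif22 by 1.11, Kif11, the motor that pushes spindle poles apart, by 0.63, Kif23, the motor of the central spindle, by 0.46, and the chromokinesin Kif4 by 0.45, with adjusted p from 0.056 to 0.66. Kif20a, a kinesin of the central spindle, differed by 1.2 (adjusted p = 0.14), with pairs of 0.91, 2.04 and 0.66. Kif2c, Kif11 and Kif23 each had a dimmer probe set with a difference below 0, of -0.12, -0.03 and -0.04. Other dimmer ones lay above 0, at 0.88 and 0.01 for Kif2c, 0.6 for Kif11 and 0.16 for Kif23. The dimmer Kif23 probe sets (means 4.09, 3.56) lay within the range of the bacterial controls, as did the Kif2c one at 0.01 (mean 4.23). The microtubule-binding protein Nusap1 differed by 1.07, with SV5 at 5.85 to 7.17 and SV5-NN4 at 7.38 to 8.12. Its dimmer probe set, with a mean of 4.07 within that same range, differed by 0.11. Hmmr, a hyaluronan receptor that also binds spindle microtubules, differed by 0.8 at its brightest probe set and by 0.14 to 0.46 at its others.

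The centromere and chromosomal passenger subgroup held 4 measured members of 5, all 4 higher in SV5-NN4 with a median of 1.06 and 0 called. Birc5, the passenger protein survivin, read 9.75, 8.1 and 9.17 in SV5 and 10.43, 9.31 and 10.49 in SV5-NN4, which overlap, and differed by 1.07 (SE 0.21, adjusted p = 0.08). Incenp, the scaffold of the passenger complex, differed by 1.09 (adjusted p = 0.054) and 0.96 (adjusted p = 0.076) at its 2 brighter probe sets and by -0.07 at the third. Cenpa, the histone H3 variant of centromeres, differed by 1.05. At the brightest probe sets of the members, Cenpe, the kinetochore kinesin, came closest to background. Of its 9 arrays 8 read 4.35 to 6.22 and the other 3.63, within the 3.18 to 4.25 of the bacterial control probe sets. Its difference of 0.62 had a 95% interval of -0.71 to 1.95.

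Cohesin, condensin and chromatid separation genes were measured for 5 of 6 members, and 5 of 5 were higher. Cdca5 encodes sororin, which holds sister chromatids together by protecting cohesin, and it had the largest share of variance between lines among the members. It read 8.25, 7.69 and 8.16 for NIH 3T3, 7.7, 7.44 and 7.57 for SV5, and 8.98, 9.33 and 9.19 for SV5-NN4, so that SV5-NN4 overlapped neither line. The rise over SV5 was 1.6 (3.03-fold, SE 0.18, 95% interval 1.18 to 2.02, adjusted p = 0.018, or 0.039 in the unpaired fit). Lines accounted for 93.7% of its variance over the 9 arrays and replicate numbers for 1.1%, against medians of 42.1% and 35.1% over the 39 members. The call was lost without any SV5 array or without SV5-NN4 replicate 2 or 3, with adjusted p up to 0.15, and the second probe set differed by 0.85. Top2a, the topoisomerase that untangles sister DNA, differed by 1.04 (adjusted p = 0.16), and Pttg1, the separase inhibitor securin, by 0.96 (adjusted p = 0.082). The condensin subunits Smc2 and Smc4 differed by 0.65 and 0.55, and their 95% intervals reached below 0.

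The 4 cytokinesis genes were all measured and all higher, with a median of 1.08 and 0 called. Ect2, a guanine nucleotide exchange factor needed for the cleavage furrow, had the largest mean difference, 1.29, with SV5 at 8.55, 7.97 and 8.74 and SV5-NN4 at 9.4, 9.93 and 9.82. Those lines did not overlap, and the adjusted p was 0.44 with an SE of 0.6, the largest among the members. NIH 3T3 read 10.25 in replicate 1 against 7.56 and 7.7. Anln, the actin-binding furrow protein anillin, behaved alike: SV5 read 8.46, 7.31 and 8.88, SV5-NN4 9.47, 9.15 and 9.3, and NIH 3T3 9.95, 7.38 and 7.38 (difference between SV5-NN4 and SV5 1.09, adjusted p = 0.48). Prc1, which bundles the central spindle, differed by 1.07 and 0.76 at 2 probe sets.

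Between SV5 and NIH 3T3 no shift of these genes passed the test. The median difference was -0.02, with 19 members above 0 and 20 below, from -0.61 for Kif2c to 0.61 for Spag5, and the median of all genes was -0.03. In the paired fit of limma 0 of 39 members were called higher, against 0.0323% of all genes, and 0 lower, against 0.0161%. At an unadjusted p under 0.05 in either direction there were 6 of 39, against 15.0% of all genes, a share near the background. The unpaired fit also called 0. SV5 was higher in 3 of 3 pairs for 4 members, against 13.4% of all genes, and lower for 7, against 17.3%. A p that misses the threshold does not show that the lines are alike: for Aurka the 95% interval was -0.25 to 0.43, but for Anln it was -1.28 to 1.24.

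The pairs disagreed. The median member difference between SV5 and NIH 3T3 was -0.34 in replicate 1, 0.15 in replicate 2 and 0.3 in replicate 3. Over all genes these medians were 0.04, -0.04 and -0.07. NIH 3T3 replicate 1 lay above its SV5 partner in 32 of 39 members, NIH 3T3 replicate 2 in 16 and replicate 3 in 9. The share of all genes was not taken for these counts. Mad2l1 shows the extreme, at 10.46 in NIH 3T3 replicate 1 against 7.78 and 7.65 in the other two arrays, and Kif11 read 7.91 against 5.81 and 5.72. Over the 9 arrays the members' median deviation from their own means was 0.49 in NIH 3T3 replicate 1, -0.98 in replicate 2 and -0.49 in replicate 3. It was 0.1, -0.8 and -0.15 in SV5, and 0.71, 0.34 and 0.74 in SV5-NN4, so that SV5-NN4 replicates 1 and 3 stood above every other array and NIH 3T3 replicate 1 above SV5-NN4 replicate 2. Without NIH 3T3 replicate 1, the median difference between SV5 and NIH 3T3 was 0.29, and over single arrays left out it ran from -0.23 to 0.29. Replicate 2 was the lowest array of its line in 28 members for NIH 3T3, in 31 for SV5 and in 27 for SV5-NN4. All-gene shares were not taken here either. The log2 ratio of 3' to 5' Actb signal differed between SV5 and NIH 3T3 by -0.52, -0.1 and -2.65 in the pairs, and that of Gapdh by -0.19, 0.04 and -2.84; their part in these values was not tested.

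**Figure D3:**
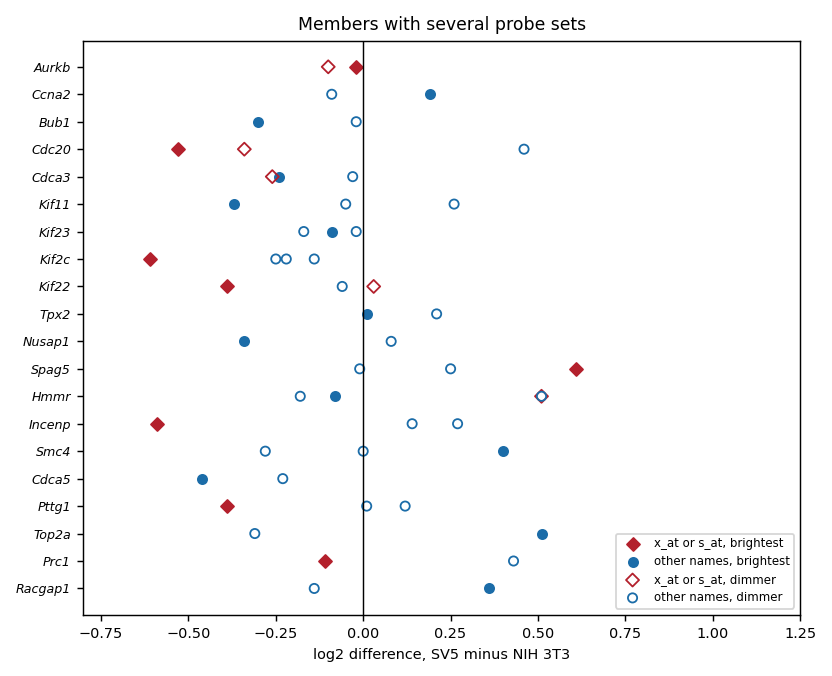
SV5 minus NIH 3T3 (log2 difference, horizontal axis) for the 20 members with several probe sets. Filled symbols are the brightest probe set and open ones the dimmer, red diamonds are probe sets with names ending in x_at or s_at and blue circles all others. For Cdc20, Incenp, Kif22 and Pttg1 the filled red diamond lies below 0, from -0.59 to -0.39, and the other probe sets reach up to 0.46.

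For several members the sign of SV5 against NIH 3T3 depended on the probe set. Affymetrix names ending in x_at or s_at mark probe sets with probes that can match other transcripts as well, and 8 members had such a probe set as their brightest. Of these 7 were below 0, with a median of -0.39, against a median of -0.07 over the 1237 genes represented by such probe sets, while the 31 other members had a median of 0.08. Cdc20 differed by -0.53 and -0.34 at 2 x_at probe sets and by 0.46 at the third. Incenp differed by -0.59 at its x_at probe set and by 0.27 and 0.14 at the others. Of the 20 members with several probe sets, 13 had differences of both signs in this comparison, against 5 of 20 between SV5-NN4 and SV5, where 67 of 72 probe sets were above 0. Of the 72 probe sets, 5 had means within the range of the bacterial controls. With x_at and s_at probe sets set aside, a choice made after the values were seen, the median difference between SV5 and NIH 3T3 was 0.1 over 38 members, and that between SV5-NN4 and SV5 was 0.82.

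Against NIH 3T3, SV5-NN4 was again higher in the mean of all 39 members, with a median of 0.97 against -0.03 over all genes. This comparison shares the SV5-NN4 arrays with the first one and is no independent repeat of it. In the paired fit 10 members were called, all higher, against 1.27% of all genes called higher, and the unpaired fit called 0 of the members, against 0.00807% of all genes. At an unadjusted p under 0.05 in the paired fit 33 were higher, against 11.3%, and 27 were higher in 3 of 3 pairs, against 18.0%. The pairs gave median differences of 0.18, 1.31 and 1.16. In 12 members, a count without a share of all genes, NIH 3T3 replicate 1 lay above SV5-NN4 replicate 1, among them Mad2l1, Kif11, Ect2 and Anln. Without that array 27 members were called, against 4.12% of all genes; the count was 0 without NIH 3T3 replicate 2 or SV5-NN4 replicate 2 or 3, 3 without NIH 3T3 replicate 3 or SV5-NN4 replicate 1, and 2 to 4 without single SV5 arrays. A paired fit of only these 2 lines called 0. Among the fits with an array left out or 2 lines only, the share of all genes was taken only without NIH 3T3 replicate 1.

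**Figure D4:**
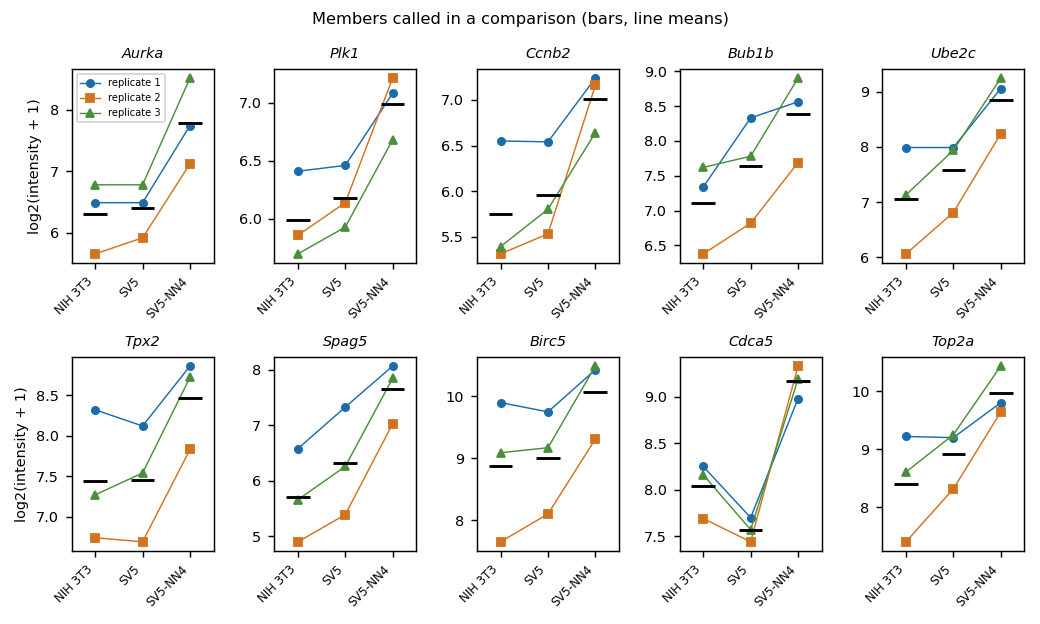
Log2(intensity + 1) of the 10 members called in a comparison, by line (horizontal axis). Coloured lines join arrays with equal replicate numbers and black bars are line means, with a separate vertical scale for each gene. The SV5-NN4 mean is the highest in each panel, and Cdca5 has the narrowest spread within lines.

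The 10 called members came from 5 of the 6 subgroups. The largest rise was that of Spag5, by 1.93 (3.82-fold, SE 0.19, adjusted p = 0.012), with pairs of 1.48, 2.13 and 2.19. Ube2c rose by 1.79 (3.45-fold, SE 0.22, adjusted p = 0.022) and Aurka by 1.48 (2.79-fold, SE 0.15, adjusted p = 0.011). Top2a rose by 1.54, from 9.22, 7.41 and 8.61 in NIH 3T3 to 9.8, 9.64 and 10.43, with an adjusted p of 0.0498 that lies at the threshold, and its dimmer probe set differed by -0.04. Bub1b rose by 1.27 with the most even pairs of the called members, 1.21, 1.31 and 1.28 (SE 0.19, adjusted p = 0.032). In NIH 3T3 it read 7.34, 6.38 and 7.62, and in SV5-NN4 8.56, 7.69 and 8.9, which do not overlap.

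The other called members rose by 1 to 1.26. Ccnb2 rose by 1.26 (adjusted p = 0.046), Birc5 by 1.2 (adjusted p = 0.047), Cdca5 by 1.13 (adjusted p = 0.039), Tpx2 by 1.03 (adjusted p = 0.046) and Plk1 by 1 (adjusted p = 0.034). Incenp also passed at its second probe set, where it rose by 1.23 (adjusted p = 0.036), but not at its brightest, where the difference was 0.5 (adjusted p = 0.23). Ccnb2, Tpx2, Birc5, Plk1, Cdca5 and Top2a each lost the call without any single array except NIH 3T3 replicate 1, with adjusted p up to 0.25. For Aurka and Spag5 it was lost without NIH 3T3 replicate 2 or SV5-NN4 replicate 2 or 3, for Ube2c without these or SV5 replicate 2, and for Bub1b without NIH 3T3 replicate 2 or 3, SV5 replicate 2 or any SV5-NN4 array. The Gapdh 3' to 5' ratio differed between SV5-NN4 and NIH 3T3 by 0.02, 0.53 and -2.16 in the pairs, and Actb by -0.18, 0.2 and -1.4; their part in these rises was not tested.

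**Figure D5:**
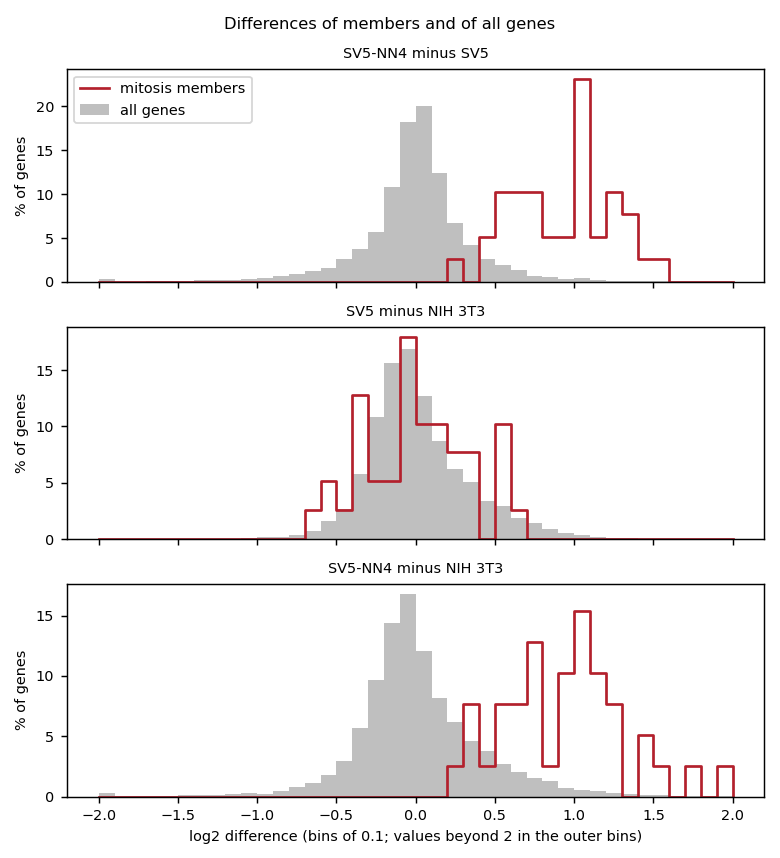
Share of genes (percent, vertical axis) by log2 difference in bins of 0.1 for the 3 comparisons. Grey bars are all 12393 genes and the red outline the 39 members. The outline lies to the right of 0 in both comparisons of SV5-NN4, with medians of 1.02 and 0.97, and over the bars for SV5 against NIH 3T3, with a median of -0.02.

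Other genes of mitosis were read from a longer list, of which 90 of 117 were measured. Between SV5-NN4 and SV5 they had a median of 0.4, with 70 above 0 and 20 below. Of the 90, 58 were higher in 3 of 3 pairs, against 22.0% of all genes, 2 were called higher, against 0.371%, and 1 lower, against 0.678%. Ncaph, a condensin subunit, rose by 1.39 (adjusted p = 0.038) at an x_at probe set. Tubg1, the gamma-tubulin of centrosomes, rose by 1.28 (adjusted p = 0.038). Cdc16, a scaffold subunit of the anaphase-promoting complex, fell by 1.26 (adjusted p = 0.023). In the unpaired fit Ncaph, Tubg1 and Cdc16 were not called, at adjusted p of 0.73, 0.46 and 0.25. The 21 kinetochore genes had a median of 0.56 with 20 above 0, and the 15 other kinesins and spindle genes a median of 0.55.

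The partners of Cdc20 and Ube2c did not share their difference as a group. The 13 measured genes of the anaphase-promoting complex, its activator Fzr1 and its enzyme Ube2s had a median of 0.05 between SV5-NN4 and SV5, with 7 above 0. Many core subunits of this complex are made through the whole cell cycle. The 13 MuvB, FoxM1 and NF-Y regulators had a median of 0.09. Mybl2, which encodes B-Myb, differed by 1.19 (adjusted p = 0.079) and Rbl1, the pocket protein p107, by 1.19 (adjusted p = 0.39), while Foxm1 differed by 0.08 (adjusted p = 0.97) and Rbl2, the pocket protein p130, by -0.58 (adjusted p = 0.38). The proliferation marker Mki67 differed by 1.21 (adjusted p = 0.09). Against NIH 3T3, 5 of the 90 were called, all higher in SV5-NN4, against 1.27% of all genes called higher. These were Tubg1 by 1.4, Ncaph by 1.26 and the kinetochore gene Dsn1 by 1.12. The others were the anaphase-promoting complex subunit Anapc11 by 0.96 and the centromere gene Cenpm by 0.81. The 5 adjusted p values of the paired fit ran from 0.028 to 0.046. In the unpaired fit they ran from 0.4 to 0.78, with 0 of the 90 called higher, against 0.00807% of all genes. Between SV5 and NIH 3T3 the list had a median of 0.04, and 0 of 90 were called by limma in the paired fit, with 12 of 90 at an unadjusted p under 0.05 in either direction, against 15.0% of all genes, and 0 called higher in the unpaired fit.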

How the data were processed

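The deposited table holds 1 intensity per probe set and array, on a linear scale. The submitters' processing notes name RMA for these intensities, with no version or settings. RMA usually gives all arrays 1 distribution, which would hide a shift of most transcripts together. The deposited arrays do not share 1 distribution, as their upper quartiles ran from 165.2 to 239.7. The notes do not explain this difference. Intensities were used as log2(value + 1). The test was limma 3.58.1 under R 4.3.3 (lmFit on all 9 arrays with 1 mean per line and the replicate number as a block, eBayes, Benjamini-Hochberg over 22690 probe sets). The fit was also run on simulated data with 1 replicate effect common to all lines. That simulation cannot show how the fit behaves when an array departs from its equal-numbered partners. The pairing was asked for by the rule that defines the members and then looked at in the data. After line means were subtracted, the 9 pairs of equal-numbered arrays of different lines correlated at r from 0.26 to 0.84 across probe sets. NIH 3T3 replicate 1 had the lowest, 0.26 with SV5 replicate 1 and 0.33 with SV5-NN4 replicate 1. The rest of the equal-numbered pairs ran from 0.65 to 0.84. The 18 other pairs, with unequal numbers, correlated at -0.73 to 0.11. Subtraction makes the deviations of each line sum to 0, which by itself pushes these other pairs below 0 when equal-numbered pairs correlate above 0. Probe sets with several symbols (691) or none (1606) and 64 controls named no gene. The members, lists and settings were chosen with earlier results of these data known. Members described in full were those called, the largest and smallest difference between SV5-NN4 and SV5 of each subgroup, and those with probe sets of both signs; further members are named for their role, outside that rule, and the smallest difference of the cytokinesis subgroup is not reported here. Of the other mitotic genes, called ones were named, and regulators were singled out after their values were seen. Alternatives were the unpaired fit, quantile normalization, median centring, a pseudocount of 16, an intensity trend, brighter probe sets only, the 2 compared lines only, averaging each gene's probe sets and leaving out each array.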

Additional observations from a re-analysis of the deposited data

How the results depend on the processing

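The number of members called depended on the fit. Between SV5-NN4 and SV5, 39 of 39 differences stayed above 0 in all planned settings (36 of 36 over the brighter probe sets). Several of these settings could not change a member's difference. These were no replicate block, the intensity trend, the brighter probe sets, the 2 lines only and leaving out an NIH 3T3 array. The 3 calls between SV5-NN4 and SV5 became 1 with no replicate block, 7 after quantile normalization and 9 over the brighter probe sets. They became 28 with only the 2 lines compared and 6 when each gene's probe sets were averaged. With single arrays left out they ran from 0 to 25. The median difference of 1.02 in this comparison ran from 0.79 to 1.28 with single arrays left out and was 0.71 with averaged probe sets. Between SV5-NN4 and NIH 3T3 the 10 calls became 0 with no replicate block, 6 with a pseudocount of 16 and 0 with only the 2 lines compared, and ran from 0 to 27, with medians of 0.7 to 1.22. The share of all genes called was taken only for the fits given with one above. For the other settings the counts do not tell whether the members alone, or all genes, gained or lost calls. Between SV5 and NIH 3T3 the calls stayed at 0 and the median ran from -0.23 to 0.29. The cause of these shifts was not tested, apart from the pairing in the replicate block. Kif2c was -0.12 between SV5-NN4 and SV5 at its brightest probe set other than x_at and s_at, an alternative chosen after seeing the data, against 1.21 at its x_at probe set. Of 609 values of single members under alternatives, 450 kept their sign and side of the threshold, 119 lost a call, 39 gained one and 1, that of Kif2c, changed sign. Signal limited Cenpe, whose level approached the bacterial controls, and 5 dimmer member probe sets, whose means lay within the range of those controls.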
